A study of Mus musculus with 47 samples.

Results

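The Hist1 locus on mouse chromosome 13 holds most of the replication-dependent histone genes. It was taken as 2 stretches of the mm9 genome, chr13:21790000-22150000 (window 1) and chr13:23550000-23870000 (window 2). The members were all ChIP-seq peaks overlapping either window, 1406 of the 713214 peaks in 46 peak lists. Chromatin immunoprecipitation used antibodies to Myc, to RNA polymerase II (RNAPII) and to the histone marks H3K4me3 and H3K27ac. Peaks of the same antibody that overlapped by 1 bp or more were merged, and regions with a peak in at least 2 libraries were kept. This left 154 of 91621 regions. They were 68 of 39145 for Myc (85 in the windows before that filter), 22 of 16931 for RNAPII (22 before), 43 of 19506 for H3K4me3 (45 before) and 21 of 16039 for H3K27ac (22 before). The members were set by position and not by any measured value.

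All mice were of the FVB strain. Tumours carried tet-Myc, a Myc transgene that depends on the tetracycline transactivator, together with LAPtTA, which makes that transactivator in liver only, and the transgene was induced in utero. The tumours with Myc on comprised 6 libraries for Myc and 4 for each other antibody. The switched-off tumours, 3 libraries per antibody, came from mice of the same genotype that were fed doxycycline for 16 h before sampling. Myc on and Myc off refer to expression of the tet-Myc transgene. The 4 control livers per antibody were unalike in genotype. The tet-Myc transgene without expression was in number 1, LAPtTA alone in number 2, and numbers 3 and 4 were wild type. The treatment protocol names wild-type and V394D forms of tet-Myc, and the labels do not say which form a tumour expressed. The labels give no ages. They also leave unsaid whether the libraries of a group are from separate animals, so each p-value refers to the spread among these libraries and that spread may be technical. In the header lines of the H3K4me3 and H3K27ac lists, all 11 labels carried the same sample code in both marks. The marks thus appear to come from the same samples and may not be independent of each other. The tissue could not be checked against marker genes, since no annotation of the files' build was used.

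Replication-dependent histone genes code for the core histones H2A, H2B, H3 and H4 and the linker histone H1. They lie in tight clusters, are transcribed in S phase, and give messenger RNAs that end in a stem-loop instead of a poly(A) tail. Myc binds DNA with its partner Max and recruits factors that open chromatin and release paused RNAPII. H3K4me3 marks active or poised promoters, and H3K27ac marks active promoters and enhancers.

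In the RefSeq gene table of GRCm38.p6, a later build in which peaks of mm9 were not placed, the Hist1 genes fall into 2 groups on chromosome 13, with 1 further entry apart from both. The group nearer the start of the chromosome has 24 genes, with 8 each for H2A and H2B, 5 for H4, 2 for H3 and 1 for H1. The other group has 31 genes, with 7 each for H2B and H3, 6 each for H2A and H4, and 5 for H1. Genes of other kinds lie between them. In the first group they include Zfp184, Pom121l2, Prss16 and 31 tRNA genes. In the second they include Hfe, Trim38 and the transporter genes Slc17a1 to Slc17a4, with 0 tRNA genes.

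RefSeq promoter sequences (250 bases before to 50 bases after the start, GRCm38.p6) were matched for 51 of the 55 genes, in 52 entries, of which 2, from different genes, were identical to each other. The letters CACGTG, the E-box that Myc and Max bind, were in 0 of 52 entries, against 7.15% of all 32851 promoters of the same length. CCAAT or its reverse complement was in 44 of 52 (84.62%), against 37.41% of all promoters. TATAAA, on either strand, was in 31 of 52 (59.62%), against 13.62% of all, and 25 entries held both. The 100 bases before the start of 1 gene of each histone class are shown because they let the elements be read in place. They are the first of each class along the chromosome with CCAAT on either strand and TATAAA on the gene's own strand in that stretch. Capitals mark CCAAT, its reverse complement ATTGG, and TATAAA. Sequences are from RefSeq, GRCm38.p6, written 5′ to 3′ on the gene's strand.
H1f5 (H1 gene, chr13:21780626-21780725, minus strand): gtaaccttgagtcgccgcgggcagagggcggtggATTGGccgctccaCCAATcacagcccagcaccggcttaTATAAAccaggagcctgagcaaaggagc
H2ac22 (H2A gene, chr13:21787249-21787348, minus strand): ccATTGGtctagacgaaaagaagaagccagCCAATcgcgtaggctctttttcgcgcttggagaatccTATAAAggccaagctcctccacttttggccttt
H2bc3 (H2B gene, chr13:23746634-23746733, plus strand): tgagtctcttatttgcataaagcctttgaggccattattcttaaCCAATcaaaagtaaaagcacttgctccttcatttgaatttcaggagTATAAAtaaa
H3c10 (H3 gene, chr13:21717528-21717627, plus strand): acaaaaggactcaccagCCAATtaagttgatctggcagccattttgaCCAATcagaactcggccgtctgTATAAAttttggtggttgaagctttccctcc
H4c4 (H4 gene, chr13:23581468-23581567, plus strand): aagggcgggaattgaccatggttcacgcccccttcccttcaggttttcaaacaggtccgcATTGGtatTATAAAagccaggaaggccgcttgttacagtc
The TATAAA element began 28 bases before the start in H1f5, 33 in H2ac22, 10 in H2bc3, 31 in H3c10 and 32 in H4c4. The search says nothing of letters outside these stretches or of what was bound there.

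Myc peaks lay all over the locus in tumours with Myc on, and few or none were called in control liver and switched-off tumours. The 6 tumours had 50, 68, 60, 64, 80 and 85 Myc peaks in the windows. The control livers had 0, 1, 0 and 4, and the switched-off tumours had 0, 0 and 0. The length under peaks in the tumours was 39.7, 37.8, 41.4, 58.3, 92.7 and 146.3 kb, or 69.4 ± 43.0 kb (SD, n = 6). In control liver it was 0, 0.224, 0 and 1.405 kb, and in switched-off tumours it was 0 in all 3. All tumours lay above all other libraries, and tumours 5 and 6 were far above the remaining 4. Their lists were also the longest of the genome, with 41558 and 55763 peaks against 19269 to 38814 in the other 4. The lists of control liver held 1002 to 8499 peaks and those of the switched-off tumours 98 to 331. A library with few peaks in the whole genome can have few in any window, and read depth is unknown. In bulk tissue, fewer cells with bound Myc and weaker binding per cell cannot be told apart.

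**Figure D1:**
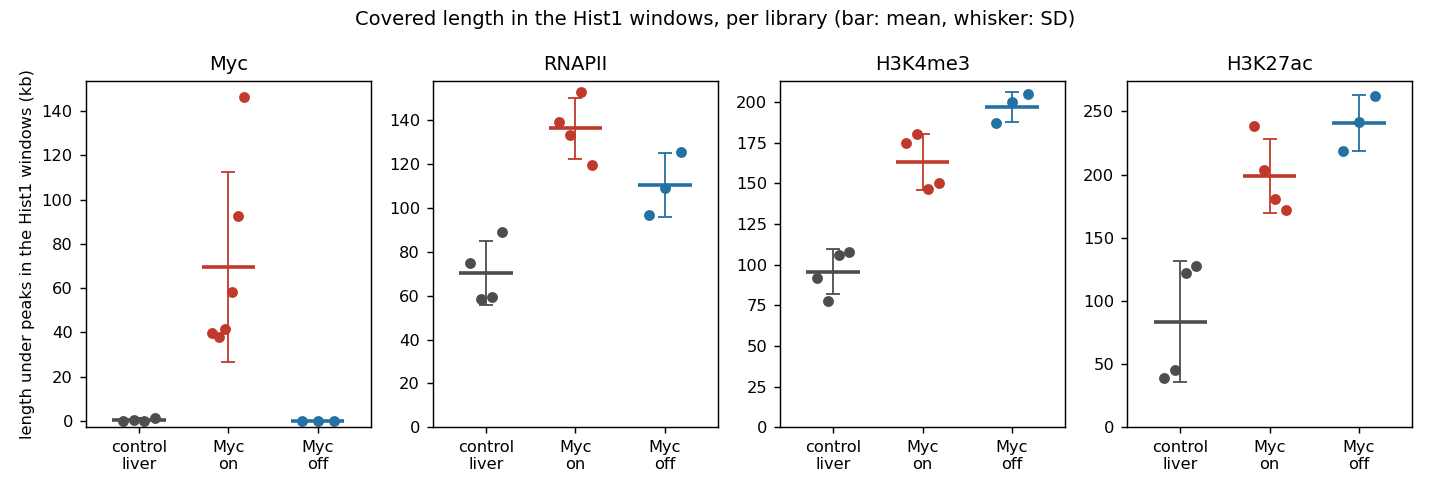
Length under peaks (kb) in the Hist1 windows for each library, in 1 panel per antibody; points are libraries, horizontal bars are group means and whiskers are SD. For RNAPII the 4 tumours with Myc on sit between 119.2 and 152.8 kb, above the 4 control livers at 58.2 to 88.8 kb.

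A larger share of the windows than of their neighbourhood lay under Myc peaks. In tumours with Myc on they covered 5.00% to 19.1% of window 1 and 6.08% to 24.3% of window 2. The 1400.0 kb between the windows served as the local comparison, and 0.341% to 2.33% of it was covered. Within each tumour's own list, the authors' scores of the Hist1 peaks had a median percentile of 39.3 to 65.6, and the top peak lay between percentiles 89.2 and 99.7.

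Of the 68 Myc regions, 64 had peaks in tumours with Myc on and in no other library, and 4 also had one in control liver. Those 64 were kept through the tumours alone, which fixed the direction of their differences, so the counts that follow are a description. A peak was present in all 6 tumours in 35 regions, of which 31 had none in control liver. With limma (moderated test on the percent of each region covered, Benjamini-Hochberg adjustment over all regions of the antibody, adjusted p below 0.05), 36 of 68 regions were higher in tumours than in control liver, 52.9%, beside 47.2% of all Myc regions. After 16 h of doxycycline, 35 of 68 were lower than with Myc on, 51.5%, beside 44.0% of all. In this setting the Hist1 share was near the background in both comparisons. Among regions present in at least 3 libraries it was 73.1% beside 70.3%, then 69.2% beside 63.7%. With the replicate block it was 57.4% beside 41.7%, then 51.5% beside 34.1%. With the wild-type controls alone the first was 42.6% beside 28.3%. Mean coverage as a covariate left 18 (26.5%, beside 15.3% of all) and 16 (23.5%, beside 15.2%). With lists cut to equal length, the short control and switched-off lists left 0 of 3 called higher, beside 26% of all, then 0 regions to test. In limma, 0 of 68 differed between switched-off tumours and control liver, with 0 also at an unadjusted p under 0.05 and 0 by Fisher's exact test, beside 0.0664% of all.

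Because tumour 6 had the widest peaks, most merged regions took their width from it, and a middle value of other tumours describes them better. Region chr13:23802082-23802925 was covered to 57.1% at the lowest, 71.8% at the median and 96.9% at the highest of 6 tumours. Control liver 4 had 45.3% there, and the other 3 control livers and the 3 switched-off tumours had 0. The tumours did not overlap the controls, with a difference of 64.5 ± 10.5 points (SE). Switching Myc off gave a difference of -75.8 ± 11.5 points (SE). Outside the tumours only control liver 4 had a peak there, so the region passed the filter of 2 libraries through the tumours. Both differences are thus a description with no p-value. Region chr13:21812686-21814923 had 0 in all 4 controls and all 3 switched-off tumours. Its tumours ran from 52.3% through a median of 67.5% to 100%, a difference from control liver of 70.2 ± 11.8 points (SE). Tumours alone kept this region, which fixed the direction, so the difference is a description with no p-value. Regions chr13:22036278-22038120 and chr13:21825922-21828297 were of the same kind, at 70.2 and 70.0 points. The widest Myc region, chr13:23621852-23630824, spanned 8973 bp and was covered at 32.7%, 35.6%, 33.2% and 40.4% in tumours 1 to 4, against 86.9% and 100% in tumours 5 and 6. Its difference from control liver was 54.8 ± 14.6 points (SE), also with no p-value, as it had no peak in control liver.

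A larger share of Myc regions in the windows than of Myc regions at large lay on H3K4me3. Of the 68, 95.59% overlapped an H3K4me3 region seen in at least 2 tumours with Myc on, against 43.67% of 38405 Myc tumour regions. In control liver, 69.12% lay on H3K4me3, against 43.9%. For H3K27ac the tumour values were 79.41% and 74.38%, and the control values 50.0% and 66.39%. For RNAPII in tumours they were 51.47% and 55.83%. No test was run on these shares, which describe these lists.

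**Figure D2:**
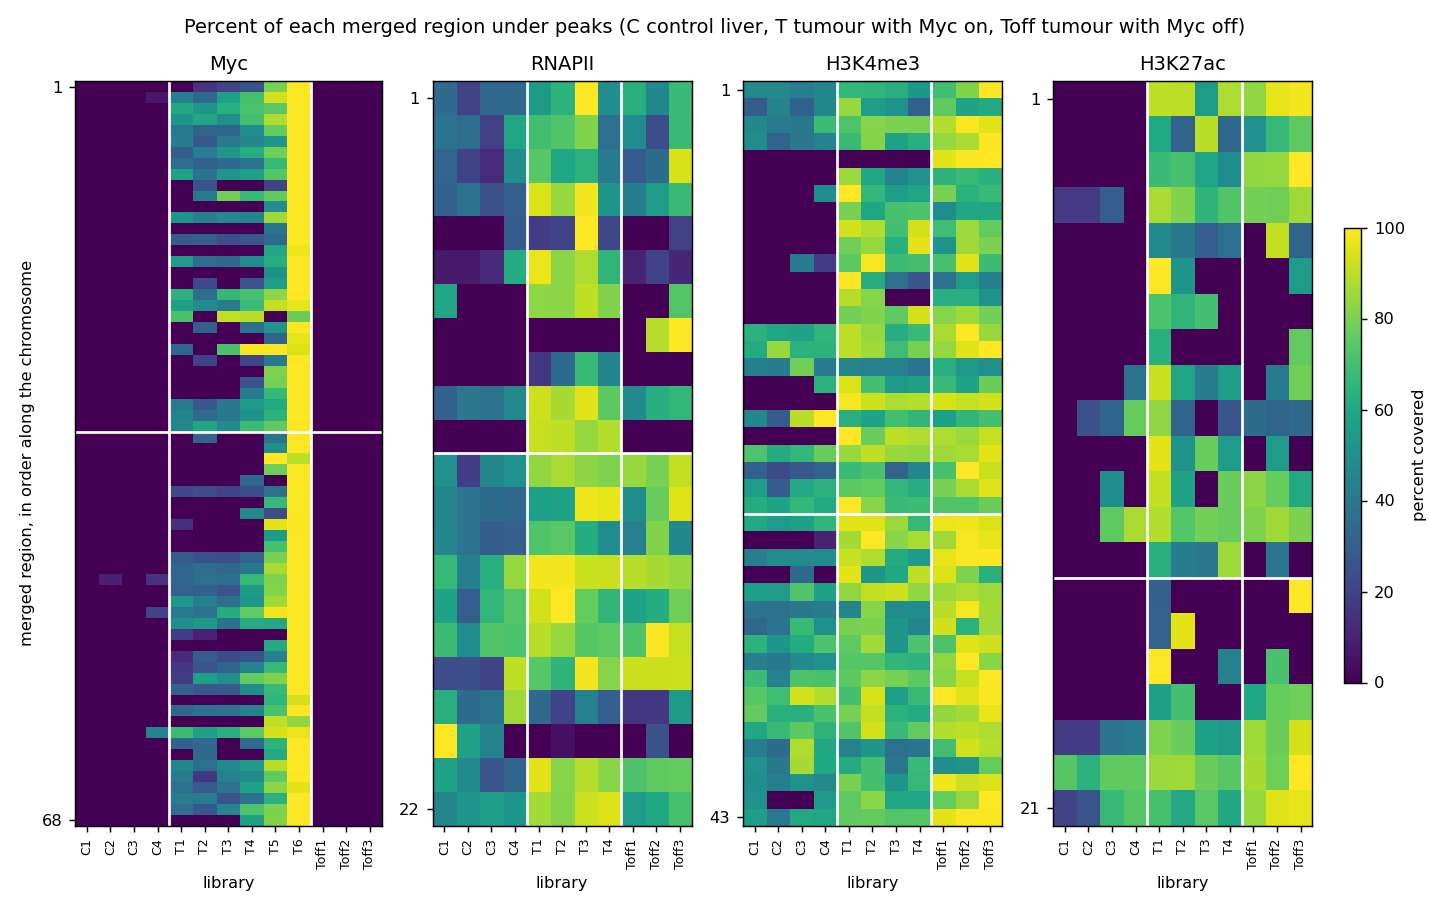
Percent of each merged region under peaks (colour, 0 to 100) for every region in the 2 windows (rows, in chromosomal order, white line between the windows) and every library (columns C control liver, T tumour with Myc on, Toff tumour with Myc off), in 1 panel per antibody. Myc columns of switched-off tumours are at 0 in all 68 rows, while H3K4me3 rows absent from control liver and filled in tumours stay filled with Myc off.

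RNAPII was on the locus in control liver and covered more of it in tumours. RNAPII peaks covered 74.7, 58.2, 59.3 and 88.8 kb of the windows in the 4 control livers and 138.9, 133.2, 152.8 and 119.2 kb in the 4 tumours with Myc on. The groups did not overlap, at 70.3 ± 14.5 kb and 136.0 ± 13.9 kb (SD, n = 4 each). There were 27 to 33 peaks per control liver and 23 to 29 per tumour, but their median width was 1593 to 2142.5 bp in controls and 3093 to 4697 bp in tumours. Over all of the genome, the RNAPII length was 80.3 to 123.9 Mb in controls and 40.9 to 119.8 Mb in tumours. The windows thus held 0.0603% to 0.0953% of it in control liver and 0.128% to 0.292% in tumours. The interval between the windows was covered to 0.327% to 0.953% in controls and 0.468% to 2.05% in tumours.

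Of 22 RNAPII regions, 16 had a peak in all 11 libraries, and the tests mostly compare how far peaks extended. In limma, 11 of 22 (50.0%) were higher in tumours than in control liver, beside 3.89% of all RNAPII regions. None (0 of 22) was lower, beside 9.1% of all, and 16 of the 22 had an unadjusted p under 0.05. The 3 regions with no peak in any control liver, 1 of them among the 11, could not come out lower. The median difference was 36.83 points in the windows and -0.3985 over all RNAPII regions. The count was 7 without control liver 2, beside 278 of all 16931. It was 6 with the wild-type controls alone (27.3%, beside 1.03% of all). Without control liver 4, 1 region was lower, beside 1198 of 16931. Of the 11 regions, 10 had a Myc peak in all 6 tumours, 10 had H3K4me3 and 9 had H3K27ac in all 4 tumours. Over all 22 regions the counts were 18, 19 and 17, a similar share.

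The region with the sharpest contrast was RNAPII region 11, chr13:22141700-22143463, of 1764 bp. It had 0 in all 4 control livers, 91.4%, 90.4%, 84.0% and 88.5% in the tumours, and 0 in the 3 switched-off tumours. Tumours with Myc on thus stood apart from every other library. Those tumours alone let the region pass the filter of 2 libraries, which fixed the direction of both differences. Limma called both, but they are given as a description, with no p-value. They were 88.6 ± 13.8 points (SE) over control liver and -88.6 ± 14.9 points for Myc off against on. The same stretch carried Myc in all 6 tumours, at 76.9% ± 17.9 (SD, n = 6), and in no control or switched-off library. H3K27ac had peaks there in 0 of 4 controls, 4 of 4 tumours and 1 of 3 switched-off tumours. H3K4me3 covered 95.4% ± 3.7 of it in control liver (SD, n = 4) and 100% in all tumours with Myc on or off.

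RNAPII region 6, chr13:21919888-21924298, was the other one that fell when Myc was switched off. Control livers had 6.96%, 7.32%, 11.99% and 62.1%, tumours 96.9%, 82.5%, 87.9% and 65.3%, and switched-off tumours 10.1%, 20.0% and 10.8%. Control liver 4 stood with the tumours, just under the lowest of them. The difference was 61.1 ± 15.1 points for tumours against controls (limma adjusted p = 0.0084) and -69.6 ± 16.3 points for Myc off against on (limma adjusted p = 0.017). Without tumour 1, 2 or switched-off tumour 2 or 3, the second difference did not pass (limma adjusted p = 0.0837, 0.057, 0.0696 and 0.061). The first did not pass without tumour 1 (limma adjusted p = 0.0543) or with the wild-type controls alone (46.2 points, limma adjusted p = 0.129). This stretch had no H3K27ac peak in any library, no H3K4me3 peak in control liver or tumours with Myc on, and a Myc peak in 1 of 6 tumours.

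Others of the 11 rose without a called fall. Region chr13:21868100-21880827 was at 31.1%, 37.2%, 24.9% and 30.5% in controls, 94.3%, 84.6%, 98.4% and 52.1% in tumours, and 42.2%, 55.3% and 68.2% with Myc off. The switched-off values overlapped those of the tumours, with a difference from controls of 51.4 ± 12.8 points for Myc on (limma adjusted p = 0.0086, or 0.057 with the wild-type controls alone). The widest region of window 1, chr13:22121523-22138959, of 17437 bp, had 31.1%, 39.8%, 37.0% and 47.9% in controls, 92.6%, 87.1%, 95.01% and 74.7% in tumours, and 47.7%, 62.2% and 66.1% with Myc off. There the switched-off tumours lay between the groups, all under the lowest tumour and 2 of 3 above the highest control. Its difference was 48.4 ± 10.9 points (limma adjusted p = 0.0041) for Myc on against control and -28.7 ± 11.8 points (limma adjusted p = 0.19) for Myc off against on. Region chr13:22036372-22037966 had 59.0%, 0, 0 and 0 in controls, 83.1%, 82.4%, 90.5% and 81.1% in tumours, and 0, 0 and 73.4% with Myc off. It was 69.5 ± 17.3 points higher in tumours (limma adjusted p = 0.0087). That call was lost without control liver 2, 3 or 4 or tumour 3 (limma adjusted p from 0.051 to 0.0633).

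In window 2, a pair of regions stood above control liver with Myc off too. Region chr13:23620721-23631255 had 50.4%, 18.3%, 46.4% and 50.4% in controls, 83.5%, 87.5%, 82.6% and 80.7% in tumours, and 84.6%, 79.6% and 90.8% with Myc off. Tumours with Myc on and off overlapped and both stood above all controls. The differences from control liver were 42.1 ± 10.1 points (limma adjusted p = 0.0064) for Myc on and 43.6 ± 10.9 points (limma adjusted p = 0.013) for Myc off. The widest RNAPII region, chr13:23772568-23791040, of 18473 bp, had 23.5%, 24.3%, 20.4% and 90.5% in controls, so control liver 4 stood with the tumours, which had 74.2%, 65.0%, 98.4% and 81.8%. Switched-off tumours had 92.0%, 92.0% and 92.4%, and their difference from control was 52.5 ± 14.0 points (limma adjusted p = 0.021). It did not pass with the wild-type controls alone (limma adjusted p = 0.344), nor without control liver 1, 2 or 3 or any 1 switched-off tumour (limma adjusted p from 0.0842 to 0.128). In all, 2 of 22 regions were higher with Myc off than in control liver, 9.09%, beside 3.33% of all RNAPII regions, and both were in window 2. With Myc off against on, 2 of 22 were lower, 9.09%, beside 1.09% of all, and both were in window 1. For 1 of these, chr13:22141700-22143463, the filter had fixed that direction. The difference between the windows was not tested. One library decided these small counts. The count of Myc off against on fell to 1 without tumour 1, tumour 2 or switched-off tumour 2, beside 37 to 87 of all 16931 lower. It was 3, 1 of them higher, without switched-off tumour 1, beside 126 of all lower and 855 higher. That of Myc off against control fell to 1 without control liver 2 or 3 or switched-off tumour 2 or 3, beside 255 to 317 of all higher.

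**Figure D3:**
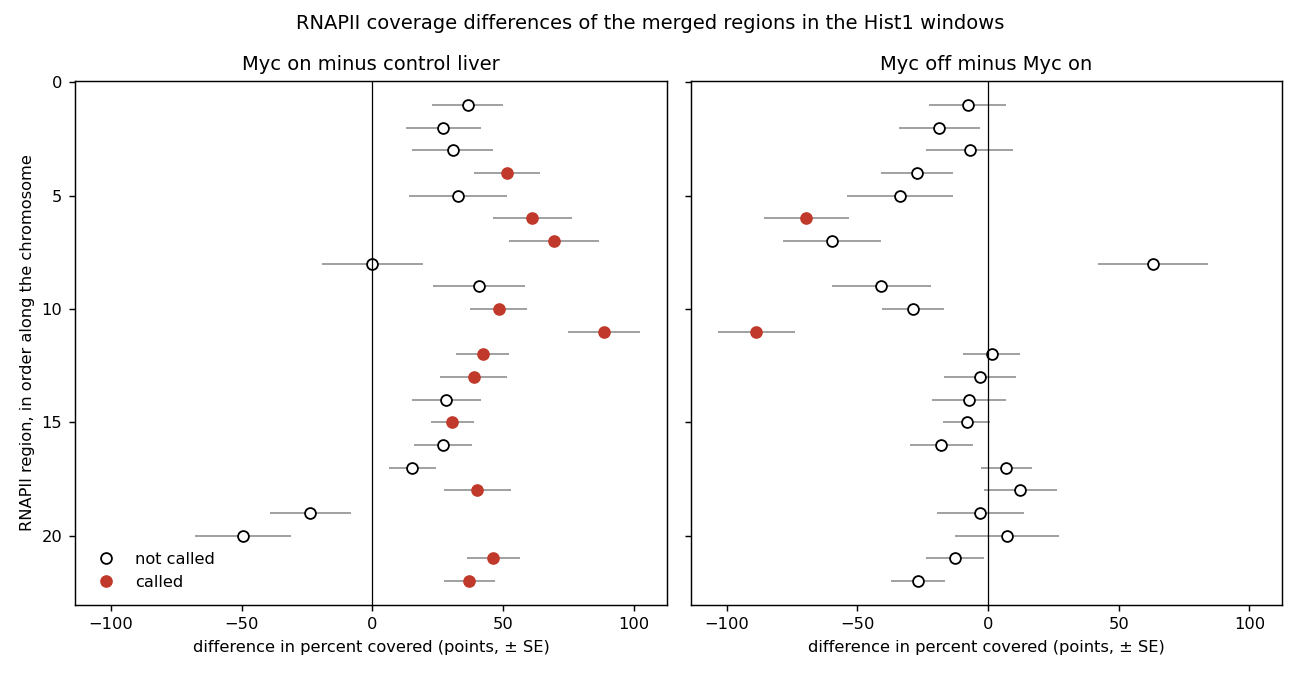
Differences in percent covered (points, with SE) for the 22 RNAPII regions in chromosomal order (region 1 at the top; regions 1 to 11 lie in window 1), tumours with Myc on minus control liver at left and Myc off minus Myc on at right; filled points passed limma at an adjusted p below 0.05. At left 11 regions are filled, all above 0, and at right 2 are filled, regions 6 and 11, both below 0.

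Other RNAPII regions, not called in any comparison, had unlike patterns. Region chr13:23819746-23823899 had 100%, 57.6%, 44.7% and 0 in controls and 0, 4.26%, 0 and 0 in tumours (-49.5 ± 18.4 points, limma adjusted p = 0.078). Region chr13:22066032-22066911 had a peak in switched-off tumours 2 and 3 alone, at 88.9% and 100%. Region chr13:22093161-22101469 had one in the 4 tumours with Myc on alone, at 16.0%, 34.8%, 67.4% and 45.1%. It stood 40.8 ± 17.5 points (SE) over control liver. Those tumours alone let it pass the filter, which fixed the direction, so this is a description with no p-value.

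**Figure D4:**
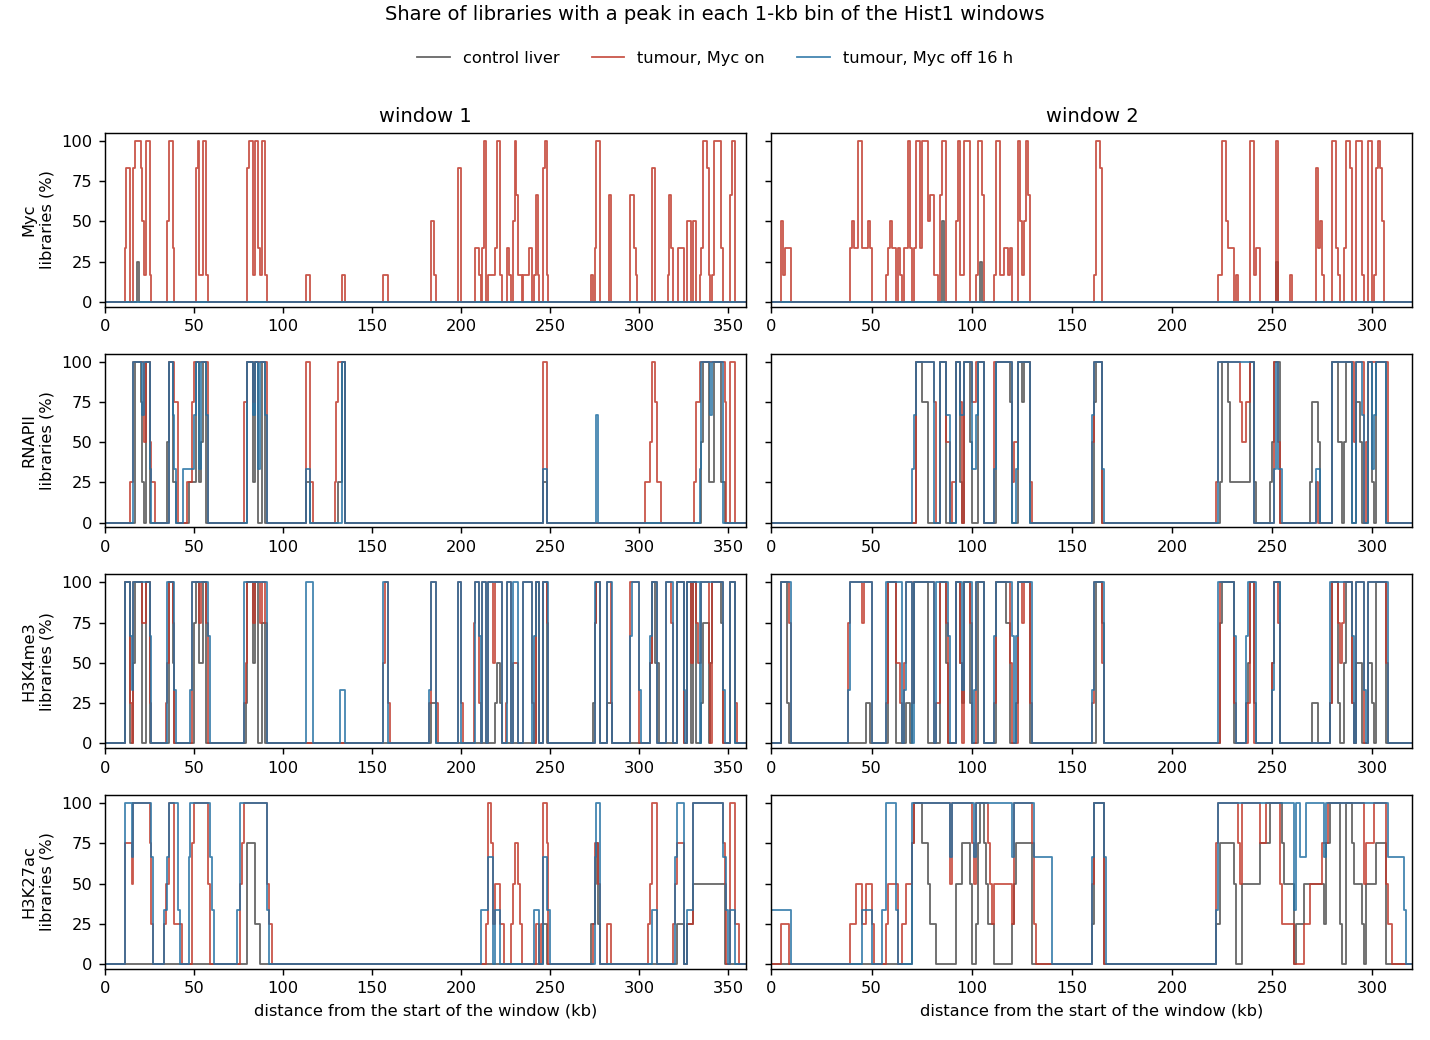
Share of libraries (percent) with a peak in each 1-kb bin along window 1 (left) and window 2 (right), by distance from the start of the window (kb), with 1 row per antibody and 1 line per group (control liver, tumour with Myc on, tumour with Myc off after 16 h of doxycycline). Myc lines rise above 0 in tumours with Myc on at separate points of both windows, and H3K4me3 lines of both tumour groups fill parts of window 1 where the control line is at 0.

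H3K4me3 covered more of the windows in tumours than in control liver, with more and wider peaks, and most of all with Myc off. Peaks covered 91.9, 77.6, 105.9 and 107.6 kb in controls, 174.9, 180.4, 146.2 and 150.4 kb in tumours, and 186.8, 199.7 and 204.8 kb with Myc off. The 3 groups did not overlap. Peak numbers were 35 to 40, 49 to 53 and 45 to 50. The windows held 0.218% to 0.236% of all H3K4me3 length in controls, 0.352% to 0.418% in tumours and 0.312% to 0.324% with Myc off. The interval between the windows was also covered more, to 1.21% to 1.43% in controls, 2.94% to 3.70% in tumours and 2.97% to 3.44% with Myc off. Over all of the genome, the H3K4me3 length was 35.4 to 49.3 Mb in controls and 38.5 to 46.3 Mb in tumours. With Myc off it was 58.0 to 65.5 Mb.

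Of 43 H3K4me3 regions, 27 had a peak in all 11 libraries. In limma, 21 of 43 were higher in tumours than in control liver, 48.8%, beside 8.13% of all H3K4me3 regions, with a median difference of 23.74 points against 0.979. None was lower, beside 6.67% of all, and the 10 regions with no peak in any control liver could not be. With the wild-type controls alone the count was 13, with 12 higher (27.9%, beside 4.27% of all) and 1 lower (2.33%, beside 8.57%). With peaks under the antibody's median score left out, 0 of 33 were higher in limma (3 at an unadjusted p under 0.05), beside 2.74% of all. Against control liver, 36 of 43 were higher with Myc off, 83.7%, beside 41.2% of all. With Myc off against on, 9 of 43 were higher, 20.9%, beside 27.7% of all. The H3K4me3 lists of switched-off tumours were the longest, with 18502 to 19876 peaks against 12999 to 15821 in the other groups, and the libraries' mean coverage moved with the group. With that mean as a covariate, limma called 0 of 43 for Myc off against control (9 at an unadjusted p under 0.05), beside 0 of all 19506. For Myc off against on it called 0 of 43 (4 at an unadjusted p under 0.05), beside 1 of 19506. This loss of calls was thus not particular to Hist1. Other settings moved that second comparison the other way. With peaks under the median score left out, 25 of 33 were higher (75.8%, beside 22.5% of all), and with narrow blocks 46 of 59 were (78.0%, beside 73.1% of all), so whether the Hist1 share lay under or over the background depended on the setting. The count of 9 fell to 4 without tumour 3 or 4, to 3 without switched-off tumour 2 and to 5 without switched-off tumour 3. Beside these, 3056 to 3487 of all 19506 were higher.

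A set of 8 of the 43 H3K4me3 regions, all in window 1 and 1382 to 5159 bp wide, had a peak in all 4 tumours and all 3 switched-off tumours and in none of the control livers. This pattern is what chose them, so their levels are given with no test, and the mean difference between tumours and controls ran from 56.4 to 91.9 points. Measured separately, 0 of the 8 had an RNAPII or H3K27ac peak in any tumour with Myc on. Each had a Myc peak in at least 1 of 6 tumours, and 1 had it in all 6. Region chr13:22105469-22108379 had 100%, 77.3%, 90.1% and 88.1% in tumours and 87.6%, 85.1% and 91.1% with Myc off. The values of the tumour groups overlapped. Region chr13:21997708-22000074 had 93.2%, 88.1%, 70.2% and 93.6%, then 69.3%, 85.5% and 75.8%. Region chr13:22025502-22030660 had 79.0%, 80.9%, 75.1% and 93.6%, then 81.8%, 85.8% and 79.1%. The lowest mean of the set was that of region chr13:22015215-22017858, at 99.5%, 62.3%, 36.8% and 26.7% in tumours and 36.5%, 55.4% and 43.2% with Myc off.

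Window 2 held a like region of 10829 bp, chr13:23588928-23599756. Control livers had 0, 0, 0 and 9.87%, tumours 86.4%, 99.8%, 82.4% and 87.5%, and switched-off tumours 85.7%, 98.7% and 96.1%. Both tumour groups stood above every control, by 86.5 ± 6.4 points with Myc on (limma adjusted p = 1.3e-05). Myc lay there in all 6 tumours, at a mean of 21.8% of the length, RNAPII in no library, and H3K27ac in 3 of 4 tumours and 1 of 3 switched-off tumours.

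One H3K4me3 region appeared with Myc off alone. Region chr13:21903792-21906363 had 0 in the 4 controls and 4 tumours, and 95.4%, 99.3% and 100% in the switched-off tumours. It was kept through the switched-off tumours alone, which fixed the direction. Its difference of 98.3 ± 7.4 points against Myc on (SE) was called by limma and is given as a description. With mean coverage as a covariate it was 96.5 points and did not pass (limma adjusted p = 0.0563). RNAPII had been present in all 4 tumours there, at a mean of 33.7% of the length, and was seen in 1 of 4 controls and 1 of 3 switched-off tumours. H3K27ac had no peak in any library.

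Of the 27 H3K4me3 regions with a peak in all control livers, 8 were called higher in tumours, by 16.5 to 29.5 points, and 4 had a difference below 0 that limma did not call. The widest region of each window was not called for tumours against controls. The region chr13:23829680-23840648, the widest of window 2, had 49.6%, 43.0%, 51.5% and 46.9% in controls and 79.6%, 70.4%, 52.2% and 66.7% in tumours, with a gap of under 1 point between the groups (19.5 ± 6.1 points, limma adjusted p = 0.052). With Myc off it had 97.9%, 92.5% and 94.7%, above all tumours with Myc on, by 27.8 ± 6.6 points (limma adjusted p = 0.011). With mean coverage as a covariate this was 9.71 points (limma adjusted p = 0.825). The widest of window 1, chr13:21801412-21815314, of 13903 bp, had 47.0%, 47.1%, 42.7% and 45.9% in controls, 66.1%, 65.8%, 62.7% and 53.4% in tumours, and 69.4%, 81.2% and 99.6% with Myc off. The 3 groups did not overlap, and only Myc off against control passed (37.7 ± 7.5 points, limma adjusted p = 0.0024).

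H3K27ac covered little of window 1 in control liver and much of it in both tumour groups. Its length in the windows was 39.1, 45.6, 122.5 and 128.0 kb in controls, 238.7, 203.8, 181.1 and 172.2 kb in tumours, and 218.3, 241.4 and 262.3 kb with Myc off. Both tumour groups stood above the controls, and overlapped each other. Controls 3 and 4, the wild-type ones, had over 2 times the length of controls 1 and 2, and also the longer lists, with 13573 and 14140 peaks against 9696 and 11202. In window 1 the cover was 0.864% to 7.19% in controls, 17.8% to 25.9% in tumours and 18.2% to 22.6% with Myc off. In window 2 it was 11.2% to 32.6%, 32.3% to 45.4% and 47.7% to 56.6%. The interval between the windows had 0.215% to 0.688%, 2.00% to 2.95% and 1.92% to 2.26%. Over all of the genome, the H3K27ac length was 72.9 to 153.1 Mb in controls, 103.6 to 141.0 Mb in tumours and 168.3 to 213.9 Mb with Myc off. The windows held 0.0504% to 0.0837% of it in controls and 0.1305% to 0.1967% in tumours. With Myc off they held 0.1129% to 0.1297%, under every tumour with Myc on.

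Of 21 H3K27ac regions, 3 had a peak in all 11 libraries. In limma, 9 of 21 were higher in tumours than in control liver, 42.9%, beside 9.88% of all H3K27ac regions. None (0) was lower, beside 6.58% of all, and 12 of 21 had an unadjusted p under 0.05. As 13 of the 21 had no peak in any control liver, those could not come out lower. The median difference was 38.81 points, against 4.449 over all. Of the 9 regions, 8 lay in window 1. The count was 5 with the wild-type controls alone (23.8%, beside 5.16% of all). It was 1 of 11 regions left with peaks under the median score removed (9.09%, beside 2.63% of all). Without control liver 2, tumour 1 or tumour 2 it was 6, beside 1007 to 1430 of all 16039. Of the 9, 8 had a Myc peak in all 6 tumours, 8 had RNAPII in all 4, and 7 had both. Over all 21 regions these counts were 15 for Myc and 11 for RNAPII. With Myc off, 8 of 21 were above control liver, 38.1%, beside 30.6% of all. That count was 3 with mean coverage as a covariate (14.3%, beside 8.84% of all) and 5 with the wild-type controls alone (23.8%, beside 16% of all).

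Region chr13:21801503-21816505, of 15003 bp, had 0 in the 4 control livers, 90.2%, 89.97%, 55.0% and 87.6% in tumours and 83.5%, 96.4% and 98.2% with Myc off. Both tumour groups overlapped, and the difference from controls was 80.7 ± 10.3 points with Myc on (SE, limma adjusted p = 0.00028). With 0 in all controls this region could not come out lower, so that difference is a description. RNAPII and H3K4me3 were there in control liver already, at 25.6% ± 6.3 and 42.3% ± 1.9 (SD, n = 4 each). In tumours they covered 54.8% ± 16.5 and 57.4% ± 5.5 (SD, n = 4 each). Its neighbours chr13:21823724-21832161 and chr13:21837410-21850312 were also at 0 in all controls and present in every tumour with Myc on or off. They were 54.2 ± 13.3 points (limma adjusted p = 0.013) and 61.5 ± 9.9 points (limma adjusted p = 0.001) higher with Myc on, a direction fixed in the same way. With the wild-type controls alone the first of them did not pass (limma adjusted p = 0.0587). Region chr13:21864731-21883552 had 16.5%, 16.9%, 30.04% and 0 in controls and 87.5%, 81.1%, 65.1% and 72.7% in tumours, and kept 79.1%, 78.4% and 85.7% with Myc off.

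The smaller H3K27ac regions of window 1 varied with Myc off. Regions chr13:22063823-22067949 and chr13:22109969-22114740 had peaks in 3 of 4 tumours and in all 3 switched-off tumours, and the 3 regions that follow had them in fewer switched-off libraries. Region chr13:22095935-22099817, of 3883 bp, had 0 in the 4 controls, 95.9%, 51.6%, 76.6% and 55.3% in tumours, and 0, 54.8% and 0 with Myc off. It was the only 1 of 21 called lower with Myc off, 4.76%, beside 0.505% of all (-51.6 ± 15.7 points, SE). With a peak in 1 switched-off tumour and in no control, it passed the filter of 2 libraries only through the tumours. That difference is thus a description with no p-value. With narrow blocks 6 of 67 were higher (8.96%, beside 26% of all) and 2 lower (2.99%, beside 1.49% of all). The call for region chr13:22095935-22099817 was lost without any 1 of tumours 1 to 4 or switched-off tumours 1 or 3 (limma adjusted p from 0.0542 to 0.15). RNAPII was present on it in the 4 tumours at 58.9% ± 18.8 (SD, n = 4) and in no control or switched-off library, and H3K4me3 in all 11. Region chr13:22141001-22145717, which holds RNAPII region 11, had 0 in controls, 62.9%, 42.4%, 40.2% and 85.2% in tumours and 0, 39.4% and 0 with Myc off. It was 57.7 ± 14.0 points (SE) higher in tumours than in controls, and Myc off against on gave -44.5 ± 15.1 points (SE). Limma called the first, though not without tumour 4, and did not call the second. The filter kept this region through the tumours too, and with 0 in all controls the first difference could not be negative. Both differences are a description with no p-value. Region chr13:22018848-22023065 had 71.8%, 65.3%, 70.2% and 0 in tumours and 0 in the other 7 libraries. Kept through the tumours alone, it had a fixed direction, and limma called it at 51.8 ± 16.2 points over controls. Leaving out any 1 control liver, or tumour 1, 2 or 3, ended that call (limma adjusted p from 0.067 to 0.142).

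In window 2, H3K27ac formed long stretches. Region chr13:23615975-23689914, of 73940 bp, had 16.9%, 17.8%, 38.1% and 41.5% in controls, 80.5%, 77.2%, 57.2% and 54.7% in tumours, and 85.7%, 77.5% and 93.4% with Myc off. The tumours lay above all controls, by 38.8 ± 10.3 points (limma adjusted p = 0.019). It did not pass with the wild-type controls alone (27.6 points, limma adjusted p = 0.0807) or without control liver 2, tumour 1 or tumour 2 (limma adjusted p from 0.0513 to 0.0681). Region chr13:23772153-23866381, of 94229 bp, had 20.3% and 26.0% in controls 1 and 2, and 67.9% and 73.5% in the wild-type controls. Tumours had 70.9%, 60.3%, 74.4% and 59.6%, of which 1 lay between the wild-type values, 1 above and 2 below, and 19.4 ± 11.7 points over all controls did not pass (limma adjusted p = 0.28). With Myc off it had 84.8%, 95.2% and 96.4%, above all controls, by 45.2 ± 12.7 points (limma adjusted p = 0.015). With the wild-type controls alone this was 21.4 points (limma adjusted p = 0.0568), with mean coverage as a covariate 3.98 points (limma adjusted p = 0.855), and it did not pass without switched-off tumour 2 or 3 (limma adjusted p = 0.0665 and 0.062).

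**Figure D5:**
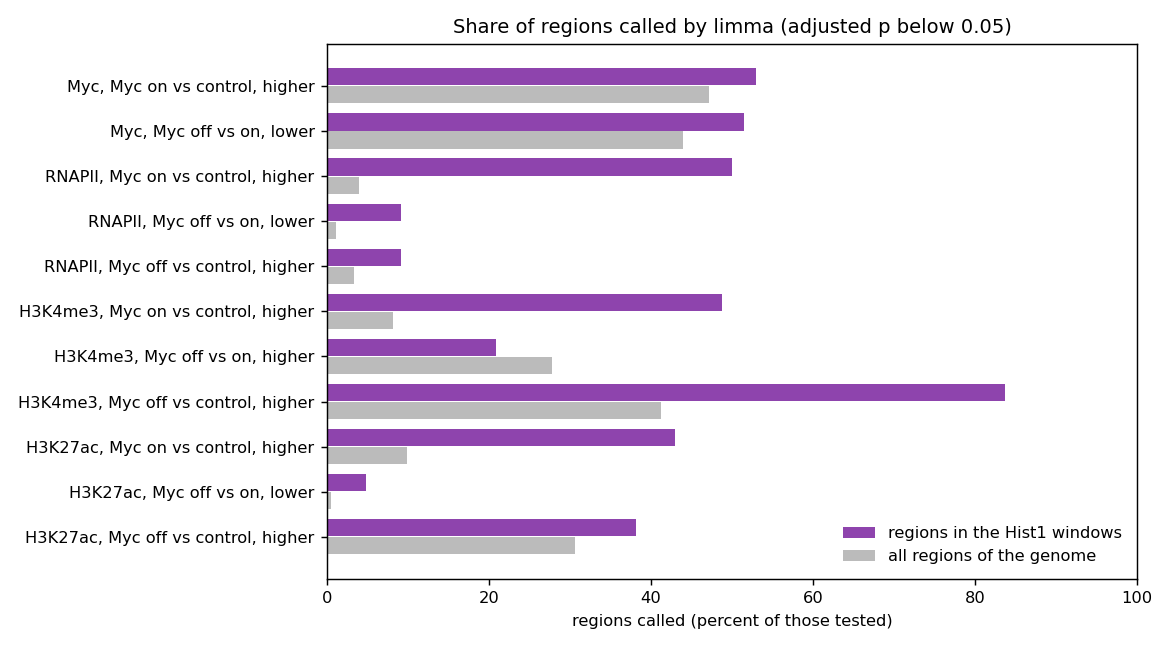
Percent of regions called by limma at an adjusted p below 0.05, for regions in the Hist1 windows and for all regions of the same antibody, in each comparison with at least 1 Hist1 call. RNAPII higher with Myc on than in control liver stands at 50.0% against 3.89%, while Myc itself stands at 52.9% against 47.2%.

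The values of the 4 antibodies after 16 h of doxycycline are set side by side here, with no test of a difference between antibodies. Both comparisons of each antibody share the control livers, so no overlap between them was computed. On the 22 RNAPII regions, Myc was present in all 6 tumours in 18, and in none of the switched-off libraries in all 22. The median RNAPII difference of these regions was 36.83 points for Myc on against control and 20.29 for Myc off against control, while over all RNAPII regions the second was 0. For H3K4me3 the medians were 23.74 and 45.06 points, against 0.979 and 22.03 over all. For H3K27ac they were 38.81 and 33.33, against 4.449 and 25.21. The medians over all H3K4me3 and H3K27ac regions were thus above 0 with Myc off as well.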

How the data were processed

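Peak lists of 46 of the 47 samples were used, with 1 list per library, and the input was not analysed here. Per the submitters' processing notes, reads were handled with BWA 0.6.2 and SAMtools on the mm9 build. The deposited lists hold peak positions, and the Myc, H3K4me3 and H3K27ac lists also a score per peak, made by the authors on an unstated scale. For the caller, its version and threshold, nothing is given in the sources used here. Scores served only to rank or filter peaks within a list. Depth in reads is unknown and no counting interval is given, and absence of a peak means only that none was called.

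For each antibody, peaks overlapping by at least 1 bp were merged, regions with a peak in 2 or more libraries entered, and each value was the share of the region, in percent, that a library's peaks covered. Merged regions take their width from the longest peaks, so libraries with short lists score lower. Values were fitted for all regions of the genome with limma 3.58.1 in R 4.3.3 (moderated test, mean-dependent prior variance, 3 groups in 1 fit, no covariate). A call needs a p below 0.05 after Benjamini-Hochberg adjustment. Covered length in the windows got no test. Python 3.11.15 with numpy 2.4.6, pandas 2.3.3 and matplotlib 3.10.9 did the rest. Coordinates are mm9 and counted from 1, and no coordinate was converted to another build.

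Regions were named by rule: per antibody and contrast up to 10 called regions with the largest difference, the widest per window, up to 5 with peaks in all libraries of 1 group and none of another, and, where fewer than 5 were named, those of highest mean coverage. RNAPII regions chr13:22066032-22066911 and chr13:23819746-23823899, H3K27ac region chr13:22063823-22067949 and H3K4me3 region chr13:22015215-22017858 fall outside it and were chosen after their values were seen. The windows, lists and tests were chosen with earlier results of these data known. Alternatives were the mean coverage as covariate, the replicate block, a constant prior variance, other filters and merging, a stricter score limit (the antibody's median score), narrow blocks, lists of equal length, Fisher's exact test on presence, wild-type controls alone, and leaving out each library.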

Additional observations from a re-analysis of the deposited data

Results flagged for a closer look

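The Myc list of control liver 4 had 1.405 kb under peaks in the Hist1 windows, far from the other 3 control livers, of which the nearest had 0.224 kb. Its gap to that library was 0.841 of the whole range of the 4. It was also the longest Myc list among the controls, with 8499 peaks against 1002 to 2816, and the part of list length in its value was not tested. Chance flags about 1 in 20 sets of values, and 24 sets were looked at. These were 3 related measures (covered length, peak number and share of all covered length) in each group of at least 4 libraries.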

How the results depend on the processing

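Counts below are Hist1 regions called, in the order Myc on against control, Myc off against on, Myc off against control. With mean coverage as a covariate, Myc gave 18 and 16 (from 36 and 35; beside 15.3% and 15.2% of all), RNAPII 5 for Myc off against control (from 2; beside 7.36% of all), H3K4me3 0 for both with Myc off (from 9 and 36, with 1 and 0 of all 19506 called), and H3K27ac 0 and 3 (from 1 and 8, the 3 beside 8.84% of all). There H3K4me3 regions 36 and 39 reversed for Myc off against on, to -9.894 and -17.24 points. Wild-type controls alone gave RNAPII 6 (from 11), H3K4me3 13 (from 21), and H3K27ac 5 and 5 (from 9 and 8), and 73.67 kb of H3K27ac for the first (from 115.1). Of all regions, 1.03% of RNAPII, 4.27% of H3K4me3, and 5.16% and 16% of H3K27ac were higher in that setting. A constant prior variance gave RNAPII 7 (31.8%, beside 3.34% of all) and 0 (beside 2.76%), each for higher than control. It gave H3K27ac 3 lower (second, 14.3%, beside 0.661% of all). Regions present in any library gave H3K27ac 0 (second, beside 0.343% of all lower). The stricter score limit gave Myc 22 (50%, beside 44.5% of all) and 19 (43.2%, beside 38.6%). It gave H3K4me3 0 (beside 2.74% of all higher) and 25 (75.8%, beside 22.5%). For H3K27ac it gave 1 (9.09%, beside 2.63%), 0 (beside 8.33% higher and 0.518% lower) and 2 (18.2%, beside 25%). H3K4me3 lengths became 14.22 and 150.8 kb (from 67.23 and 34.13). Narrow blocks gave H3K4me3 32, 46 and 58 of 59 regions (beside 18.7%, 73.1% and 82.5% of all, higher), H3K27ac 14, 8 and 37 of 67 (the 8 being 6 higher and 2 lower, where the 1 call was lower; 26.0% and 1.49% of all), H3K4me3 40.44 and 49.41 kb, and H3K27ac 37.68 kb (first). Lists of equal length gave Myc 0 (beside 26% of all higher) and 0 (no region to test), with 2.515 and 0 kb (from 68.96 and -69.37). They gave RNAPII 1 lower (second, 5.26%, beside 0.628% of all) and H3K4me3 4 higher (second, 9.52%, beside 7.55%). For H3K27ac with Myc off they gave 3 lower than with Myc on (16.7%, beside 1.37%) and 4 higher than control (33.3%, beside 19.1%). The control and switched-off Myc lists are so short that few tumour peaks remain at equal length. Fisher's exact test on presence gave 0 for each contrast of RNAPII, H3K4me3 and H3K27ac, where 0.0286 is the smallest p. Unadjusted counts under 0.05 were 2, 2 and 0 for RNAPII, 8, 1 and 10 for H3K4me3, and 6, 0 and 4 for H3K27ac. The cause of the other moves was not tested. Leaving out 1 library gave RNAPII 7 to 10, 1 to 3 and 1 to 2. Beside these stood 1171 to 2074, 178 to 981 and 630 to 1345 of all 16931. For the second comparison it gave H3K4me3 3 to 11, beside 3101 to 4473 of all 19506. There it gave H3K27ac 0 to 2, beside 1239 to 2688 of all 16039.

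The replicate block moved H3K4me3 to 4 (9.3%, beside 17.5% of all higher) and H3K27ac to 0 (beside 0.393% of all lower) for Myc off against on. It moved no other count by over 1.5 times. Deviations from the group means of same-numbered libraries in 2 groups correlated at -0.163 to 0.152. In no antibody and contrast did all numbers exceed 0.1. Low correlations cannot show whether the numbers pair libraries of different groups. Of 948 values of named regions under alternatives, 805 kept direction and side of the threshold, 141 lost the call and 2 reversed.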
